A study of Mus musculus with 4 samples.

Results

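The genes described here are those that carry cells through mitosis and the meiotic divisions: cyclins and Cdk1, the kinases and phosphatases that switch it, the spindle checkpoint, the centromere, and the motors of the spindle. They were chosen by name from 45 listed symbols, of which 44 occur in the deposited tables, among 55401 rows in all. The symbol not found, Emi1, is an older name of Fbxo5, which is listed and found. Of the 44 genes, 42 averaged 1 FPKM or more across the 4 libraries and were tested, together with the rest of the 17905 genes that did. The other two, Ccna1 and Aurkc, lay below that filter and were tested only without it. FPKM counts fragments scaled to exon length and to the size of the library, and each fold change given is ko over het.

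Poly(A) RNA came from testes of C57BL/6J mice at postnatal day 14, in 2 Kctd19-/- libraries (ko) and 2 Kctd19+/- libraries (het), with no treatment. The het testes also carry 1 mutant allele of Kctd19, and no wild-type testis was analysed here. The design text calls the replicates biological, and the labels name neither the stretch of Kctd19 that was altered nor any pooling of animals. Assigned reads were estimated from the FPKM values and exon lengths. These estimates ran from 14573566 to 19430364 in the ko libraries and from 12155089 to 14638658 in the het libraries. Reads recovered in rows matched to annotated genes summed to 99.8% and 100.7% of them in ko and to 100.1% and 100.3% in het. The estimates are thus approximate totals. Kctd19 itself stood at 12.8 and 15.6 FPKM in ko and at 29.7 and 18.2 FPKM in het, with a log2 fold change of -0.69 (SE 0.25; limma, Benjamini-Hochberg adjusted p = 0.529). RNA of the gene was thus still counted in ko, and without the altered stretch its level does not check the genotype. Markers of testis cells were present in every library. The 10 Sertoli cell markers summed to 2122 and 1826 FPKM in ko and to 1462 and 1742 FPKM in het, with 6 of 10 higher in both ko libraries, against 22.1% of all genes. Much of the sum came from Clu, at 657 and 561 FPKM in ko and 398 and 500 in het. Another large part was Cst12, at 505 and 432 FPKM in ko and 302 and 399 in het. The median log2 fold change of the 10 was 0.14. The 10 early prophase markers summed to 665 and 707 FPKM in ko and to 868 and 678 FPKM in het. Limma called 0 of them. At an unadjusted p under 0.05 limma had 2 lower and 1 higher, against 4.41% and 4.9% of all genes. Limma voom on reads recovered from the FPKM values called 1 lower, Meioc (Benjamini-Hochberg adjusted p = 0.0343), against 0.619% of all genes. The 8 macrophage and leukocyte markers summed to 134 and 110 FPKM in ko and to 61.3 and 60.4 FPKM in het. Limma called 1 of the 7 tested, C1qb, higher in ko, against 0.207% of all genes. Limma voom on reads recovered from the FPKM values called 2 higher, against 0.774% of all genes. At an unadjusted p under 0.05 limma had 4 of the 7 higher, against 4.9% of all genes. In both ko libraries 5 lay higher, against 22.1% of all genes. Of 10 round spermatid markers, 7 were tested, and the list summed to 43.7 and 6.01 FPKM in ko and to 12.5 and 7.71 FPKM in het. Ko replicate 1 stood apart there, with 172 reads of the protamine gene Prm1, against 4 in ko replicate 2 and 4 and 0 in the het libraries. Of the 7 tested, 5 had a log2 fold change above 0, and 2, Acr and Spaca1, had one below 0. Acr stood at 0.23 and 0.83 FPKM in ko and at 4.97 and 2.21 FPKM in het. Voom called 1 of the 7 lower, Acr (Benjamini-Hochberg adjusted p = 0.0345), against 0.619% of all genes. The part of these cell types in the division gene values was not tested.

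Entry into division is driven by Cdk1 bound to a cyclin. Wee1 and Pkmyt1 hold Cdk1 inactive by phosphorylation and the Cdc25 phosphatases release it, after which Polo and Aurora kinases build the spindle and the checkpoint delays anaphase until chromosomes are attached. The anaphase-promoting complex, opened by Cdc20, then destroys the cyclins and securin (Pttg1) so that separase (Espl1) can cut cohesin. In the juvenile testis spermatogonia and somatic cells divide by mitosis, while spermatocytes pass through a long prophase and already hold transcripts for the meiotic divisions. KCTD19 is a protein of meiotic germ cells, and mice that lack it are known to fail around the meiotic divisions.

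Many division genes share 2 promoter motifs, which are shown here for members with small p-values and for Cdk1. The CHR element (TTTGAA or TTTAAA, both strands) is bound by MuvB complexes and the CCAAT box (both strands) by NF-Y. The RefSeq promoter table of build GRCm38.p6 held windows for 36 of the members, 38 windows of 250 bases before to 50 bases after an annotated start. A CHR element lay between 100 bases before and 50 after the start in 21 of the 38 windows (55.3%), against 12.8% of all 32851 promoter windows. A CCAAT box lay in 32 of the 38 windows (84.2%), against 37.4% of all windows. Both together, a CHR element near the start and a CCAAT box in the window, occurred in 20 windows (52.6%), against 4.99% of all. No window was matched for Aurkb, Ccna2, Cdc25c, Incenp, Kif20a, Pkmyt1, Tpx2 and Wee1.

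The last 110 bases before the start follow, 5′ to 3′ on the gene's strand, with CHR elements and CCAAT boxes in capitals. Kif11 (chr19:37376272-37376381, plus strand) and Top2a (chr11:99024190-99024299, minus strand) are among the members with the smallest p and hold a CHR element. Cdk1 (chr10:69352913-69353022, minus strand) is the core kinase of division and holds both motifs. Nek2 (chr1:191821363-191821472, plus strand), also among the 10 members with the smallest p, holds a CCAAT box and no match to the CHR element. Sgo2a, Cdc25b, Bub1, Nuf2 and Pttg1, also among these 10, hold no CHR match in their windows either.
Kif11: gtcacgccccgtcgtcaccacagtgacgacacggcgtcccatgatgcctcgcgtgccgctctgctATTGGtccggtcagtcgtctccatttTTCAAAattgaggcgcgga
Top2a: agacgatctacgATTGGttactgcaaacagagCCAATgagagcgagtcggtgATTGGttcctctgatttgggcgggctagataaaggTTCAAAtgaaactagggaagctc
Cdk1: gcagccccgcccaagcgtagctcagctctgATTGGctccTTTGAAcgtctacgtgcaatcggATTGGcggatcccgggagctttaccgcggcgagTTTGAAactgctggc
Nek2: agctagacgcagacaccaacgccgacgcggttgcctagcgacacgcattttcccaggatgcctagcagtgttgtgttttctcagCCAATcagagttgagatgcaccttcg

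Most division genes differed little in level between ko and het testes. None of the 42 tested members was called higher or lower in ko by limma on log2(FPKM + 1) at a Benjamini-Hochberg adjusted p under 0.05, against 0.207% of all genes called higher and 0.0112% called lower. The smallest limma adjusted p of a member was 0.474. By limma voom on whole reads recovered from the FPKM values, 0 members were called as well (smallest Benjamini-Hochberg adjusted p = 0.0984), against 0.774% of genes called higher and 0.619% called lower. The fold of the group means lay between 0.676 (Pkmyt1) and 1.252 (Cks1b). The log2 fold change was below 0 in 25 of the 42 members, against 47.9% of all genes, and above 0 in 17, against 52.1%.

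The intervals bound how large a difference these 4 libraries allow. The 95% interval of the limma fit lay within 2-fold for all 42 members and within 1.5-fold for 38, on the log2(FPKM + 1) scale, which understates the change of low genes. With voom, which adds no FPKM pseudocount, these counts came to 42 and 36. The 42 members had a median log2 fold change of -0.05, against 0.01 over all genes tested. The median absolute log2 fold change was 0.11 over the members and 0.12 over all genes. Between the replicates of a genotype, the median absolute log2 difference in members was 0.07 for the ko libraries and 0.10 for the het libraries, against 0.14 for each over all genes. These are differences between single libraries, which vary more than differences between means of 2, so the sizes are not compared directly.

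**Figure D1:**
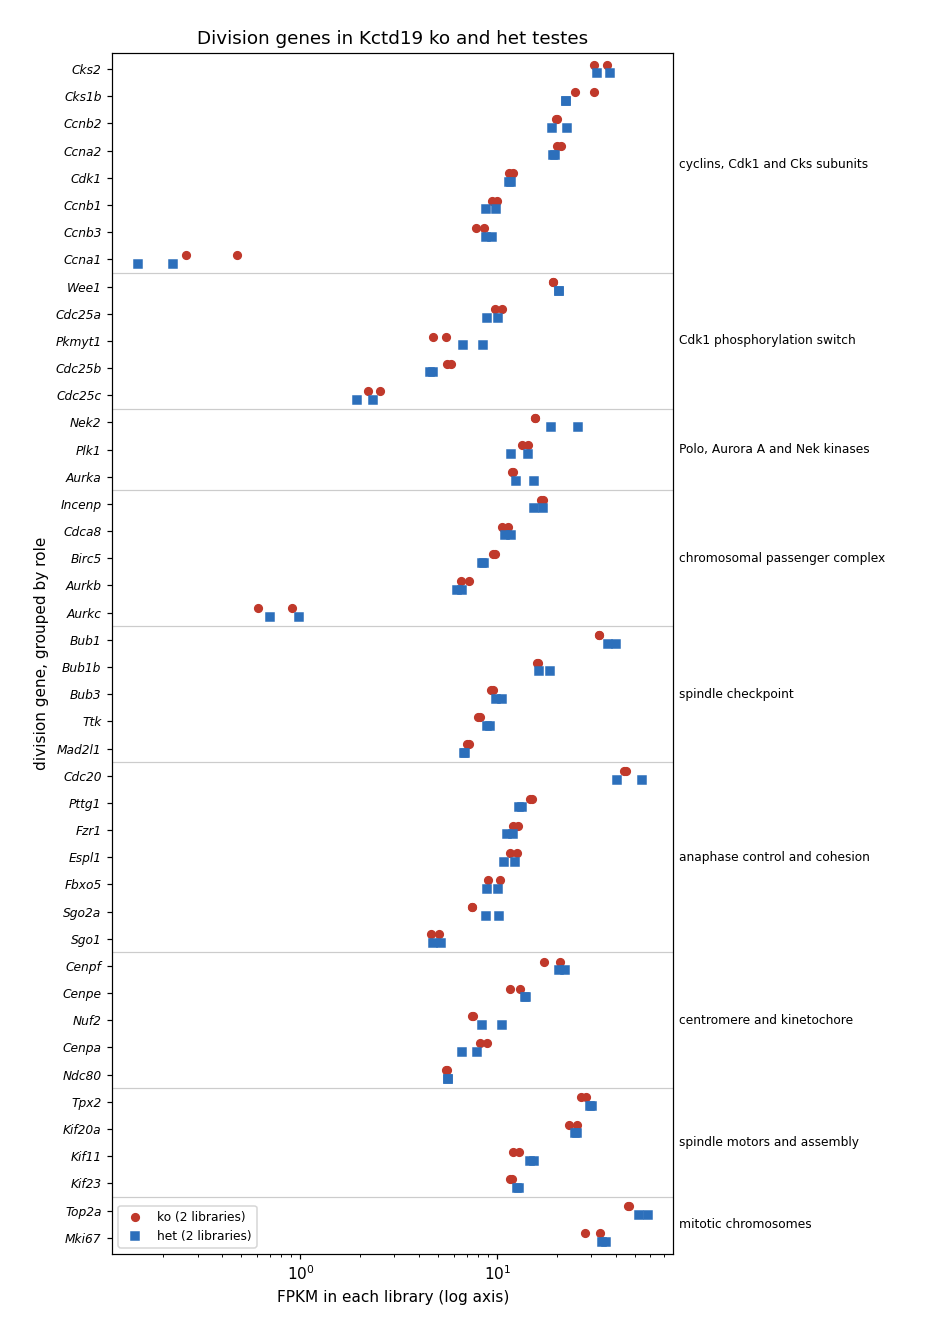
Level of each of the 44 division genes in each library (FPKM, log axis), grouped by role, with ko libraries as circles and het libraries as squares. Top2a and Cdc20 stand highest, Ccna1 and Aurkc lie under 1 FPKM, and Pkmyt1 and Nek2 are lower in both ko libraries than in either het library.

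Levels differed far more between genes than between genotypes. By mean FPKM over the 4 libraries, 10 members stood at 20 or above, 30 between 5 and 20, and 4 under 5. Top2a, the topoisomerase that untangles sister DNA, was highest at 50.7 FPKM, followed by Cdc20 at 45.9, the checkpoint kinase Bub1 at 35.6, the Cdk-binding subunit Cks2 at 34.1 and the proliferation antigen Mki67 at 32.8. The 44 genes together summed to 643 and 649 FPKM in ko and to 702 and 665 FPKM in het, which was 0.181% and 0.174% of all FPKM in the ko libraries and 0.200% and 0.188% in the het libraries. In bulk tissue, fewer cells of a type and less RNA per cell cannot be told apart.

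Among the cyclins, Cdk1 and the Cks subunits, 0 of 7 tested genes passed at an unadjusted p under 0.05 by limma. Over all genes, 4.41% passed lower and 4.9% higher, so 0 of 7 is near that share. The median log2 fold change of the 7 was 0.03. Cdk1, the kinase of division, stood at 11.5 and 12.1 FPKM in ko and at 11.7 and 11.4 FPKM in het, with a log2 fold change of 0.03 (SE 0.08, 95% interval -0.19 to 0.24). Ccnb1, the main B-type cyclin, stood at 9.995 and 9.45 FPKM in ko and at 8.72 and 9.79 FPKM in het, and the groups overlap. Ccnb2 stood higher than Ccnb1 in every library, at 19.9 and 20.2 FPKM in ko and at 22.7 and 19.0 FPKM in het, and again the groups overlap. Ccnb3, a B-type cyclin of early meiotic prophase in mice, stood at 7.75 and 8.57 FPKM in ko and at 9.35 and 8.77 FPKM in het, so that both ko libraries lay below both het libraries by a margin smaller than the spread within ko.

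The A-type cyclins stood far apart in level. Ccna2, the A-type cyclin of dividing cells, had 21.1 and 20.1 FPKM in ko and 19.1 and 19.7 FPKM in het. Ccna1, the A-type cyclin of late spermatocytes that male mice need for the first meiotic division, had 0.477 and 0.262 FPKM in ko and 0.149 and 0.224 FPKM in het. These rest on 17 and 7 reads in ko and 4 and 5 reads in het, and Ccna1 did not pass the filter. It was highest in ko replicate 1, the library in which the round spermatid markers also summed highest, and their part in its value was not tested. Of its exon length, 10.1% overlaps 4931419H13Rik on the opposite strand, whose reads cannot be told apart, since the sources used here do not state whether counting used strand. Ccna2 stood 44.2 and 76.8 times above Ccna1 in ko and 128 and 87.7 times in het. In the limma fit without the filter, the log2 fold change of Ccna1 was 0.20 (Benjamini-Hochberg adjusted p = 0.799).

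Of the Cks subunits, which tether substrates to Cdk1, Cks1b stood at 31.0 and 24.8 FPKM in ko and at 22.3 and 22.3 FPKM in het. Both ko libraries lie above both het libraries, and ko replicate 1 stands well above ko replicate 2. The log2 fold change of 0.30 (SE 0.13) did not pass (limma, Benjamini-Hochberg adjusted p = 0.556). Leaving out ko replicate 1 gave 0.15 and leaving out ko replicate 2 gave 0.46. Its paralog Cks2, which mouse germ cells need to leave the first meiotic metaphase, stood at 31.2 and 35.9 FPKM in ko and at 37.3 and 32.2 FPKM in het, with no separation of the groups.

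The genes that set the phosphorylation of Cdk1 included the member with the lowest fold change. Pkmyt1 (chromosome 17 from 23726336 to 23736735 of GRCm38), a membrane-bound inhibitor of Cdk1, stood at 4.73 and 5.50 FPKM in ko and at 8.48 and 6.66 FPKM in het, or 5.12 ± 0.54 against 7.57 ± 1.28 (SD, n = 2 each). Both ko libraries lie below both het libraries, and het replicate 1 is the highest of the 4. The log2 fold change of -0.48 (SE 0.15, 95% interval -0.86 to -0.10) did not pass over all genes (limma, Benjamini-Hochberg adjusted p = 0.474). Exons of Paqr4 on the opposite strand overlap 8.76% of its exon length. Leaving out het replicate 1 gave -0.33, and leaving out het replicate 2 gave -0.63. Wee1, the nuclear inhibitor of Cdk1, stood at 19.1 and 19.2 FPKM in ko and at 20.7 and 20.7 FPKM in het, a small difference with no overlap.

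On the activating side Cdc25b (chromosome 2 from 131186949 to 131198497) stood at 5.84 and 5.54 FPKM in ko and at 4.56 and 4.70 FPKM in het. Both ko libraries lie above both het libraries, but the log2 fold change of 0.25 (SE 0.10) did not pass (limma, Benjamini-Hochberg adjusted p = 0.537). Cdc25a stood at 10.5 and 9.78 FPKM in ko and at 8.83 and 10.1 FPKM in het. Cdc25c, the lowest tested member, stood at 2.53 and 2.204 FPKM in ko and at 1.93 and 2.32 FPKM in het, on 139 to 242 reads a library, and 12.7% of its exon length overlaps the opposite-strand gene Gm3550. The summed level of the 3 Cdc25 genes was 0.791 and 0.709 times that of Wee1 and Pkmyt1 together in ko, against 0.526 and 0.627 times in het. These ratios do not overlap between the genotypes and carry no test. Of all genes tested, 41.8% have single-gene levels that do not overlap, in 1 direction or the other. No such share was computed for ratios of summed genes.

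Among the kinases of spindle assembly, Nek2 (chromosome 1 from 191821444 to 191833050), a centrosome kinase active in spermatocytes, stood at 15.5 and 15.6 FPKM in ko and at 25.7 and 18.7 FPKM in het, or 15.5 ± 0.07 against 22.2 ± 4.92 (SD, n = 2 each). Opposite-strand exons of Gm38037 overlap 6.60% of its exon length. The ko libraries lie close together, and the het libraries differ from each other by more than het replicate 2 differs from ko. The log2 fold change was -0.47 (SE 0.16, 95% interval -0.89 to -0.05) and did not pass (limma, Benjamini-Hochberg adjusted p = 0.510). Leaving out het replicate 1 gave -0.25, and leaving out het replicate 2 gave -0.69. Plk1, the Polo kinase that triggers entry and spindle assembly, stood at 14.4 and 13.4 FPKM in ko and at 11.7 and 14.3 FPKM in het. Aurka, the Aurora kinase of spindle poles, stood at 11.8 and 12.0 FPKM in ko and at 15.4 and 12.4 FPKM in het. Its groups do not overlap, and het replicate 1 alone stands away from the rest.

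The chromosomal passenger complex corrects faulty attachments at the centromere. Of its 4 tested members, 0 passed at an unadjusted p under 0.05 by limma. That is near the share over all genes, 4.41% lower and 4.9% higher. The summed level of the complex was 45.8 and 44.5 FPKM in ko and 42.9 and 43.5 FPKM in het. Aurkb, the mitotic kinase of the complex, stood at 7.21 and 6.57 FPKM in ko and at 6.21 and 6.62 FPKM in het. Aurkc, the germ cell form of that kinase, stood at 0.608 and 0.901 FPKM in ko and at 0.987 and 0.702 FPKM in het, on 18 and 20 reads in ko and 22 and 13 in het, and did not pass the filter. Without the filter its log2 fold change was -0.07 (limma, Benjamini-Hochberg adjusted p = 0.937). Incenp, the scaffold, lay between 15.4 and 17.2 FPKM in all 4 libraries. Birc5 (survivin) stood at 9.50 and 9.72 FPKM in ko and at 8.55 and 8.32 FPKM in het, with no overlap.

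In the spindle checkpoint, both ko libraries lay below both het libraries for 4 of 5 members, against 19.7% of all genes, and above them for Mad2l1, against 22.1% of all genes. Bub1, the kinase that seeds the checkpoint at kinetochores, stood at 32.8 and 33.0 FPKM in ko and at 40.0 and 36.4 FPKM in het, with a log2 fold change of -0.21 (SE 0.09; limma, Benjamini-Hochberg adjusted p = 0.556). Mad2l1, the inhibitor of Cdc20, stood at 7.19 and 7.04 FPKM in ko and at 6.84 and 6.81 FPKM in het. Bub1b, Bub3 and Ttk had log2 fold changes of -0.12, -0.10 and -0.14. Their SEs were 0.09, 0.09 and 0.08.

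In anaphase control, Sgo2a (chromosome 1 from 57995971 to 58025899), the shugoshin that shields centromeric cohesin in the meiotic divisions, stood at 7.41 and 7.45 FPKM in ko and at 10.2 and 8.75 FPKM in het. Both ko libraries lie below both het libraries, and het replicate 1 is highest. Its log2 fold change of -0.31 (SE 0.10) did not pass (limma, Benjamini-Hochberg adjusted p = 0.510). Leaving out het replicate 1 gave -0.21, and leaving out het replicate 2 gave -0.41. Exons of Kctd18 on the opposite strand overlap 35.0% of the exon length of Sgo2a, so its reads may be shared or dropped there. Sgo1, the mitotic shugoshin, stood at 5.07 and 4.59 FPKM in ko and at 4.72 and 5.16 FPKM in het. Pttg1 stood at 14.7 and 15.0 FPKM in ko and at 13.4 and 12.8 FPKM in het, with no overlap, and its target Espl1 at 11.6 and 12.6 FPKM in ko and at 10.8 and 12.2 FPKM in het. Fbxo5, which restrains the anaphase-promoting complex, stood at 10.3 and 8.94 FPKM in ko and at 8.87 and 10.1 FPKM in het. Cdc20 stood at 43.8 and 44.9 FPKM in ko and at 54.3 and 40.5 FPKM in het, the widest het pair among the 10 most abundant members by difference in FPKM, and its ko libraries lie between the het libraries. Fzr1, the other activator of that complex, lay between 11.2 and 12.8 FPKM in all 4 libraries.

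At the kinetochore, Nuf2, a subunit that grips microtubules, stood at 7.42 and 7.52 FPKM in ko and at 10.6 and 8.32 FPKM in het, with a log2 fold change of -0.30 (SE 0.13; limma, Benjamini-Hochberg adjusted p = 0.578). Leaving out het replicate 1 gave -0.14 for Nuf2, and leaving out het replicate 2 gave -0.46. Its partner Ndc80 stood at 5.49 and 5.55 FPKM in ko and at 5.59 and 5.61 FPKM in het, with a log2 fold change of -0.02 (SE 0.09). The centromeric histone Cenpa stood at 8.17 and 8.91 FPKM in ko and at 6.62 and 7.85 FPKM in het, on the higher side in ko, while the large kinetochore protein Cenpf stood at 17.2 and 20.9 FPKM in ko and at 20.48 and 22.0 FPKM in het. Of the 5 kinetochore genes, 0 passed at an unadjusted p under 0.05 by limma.

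Of the spindle motors, Kif11, which pushes the poles apart, stood at 12.1 and 12.9 FPKM in ko and at 15.4 and 14.6 FPKM in het, with a log2 fold change of -0.25 (SE 0.09; limma, Benjamini-Hochberg adjusted p = 0.519). Both groups are tight and do not overlap. Tpx2, Kif23 and Kif20a had log2 fold changes of -0.11, -0.11 and -0.04, and 29.3% of the exon length of Kif20a overlaps Cdc23 on the opposite strand. Top2a (chromosome 11 from 98992943 to 99024189) stood at 46.0 and 46.6 FPKM in ko and at 58.1 and 52.3 FPKM in het, with a log2 fold change of -0.25 (SE 0.09; limma, Benjamini-Hochberg adjusted p = 0.529). Mki67 stood at 27.8 and 33.3 FPKM in ko and at 34.2 and 35.8 FPKM in het, with no overlap. Its value in ko replicate 1 is lowest, and that in ko replicate 2 lies next to het.

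**Figure D2:**
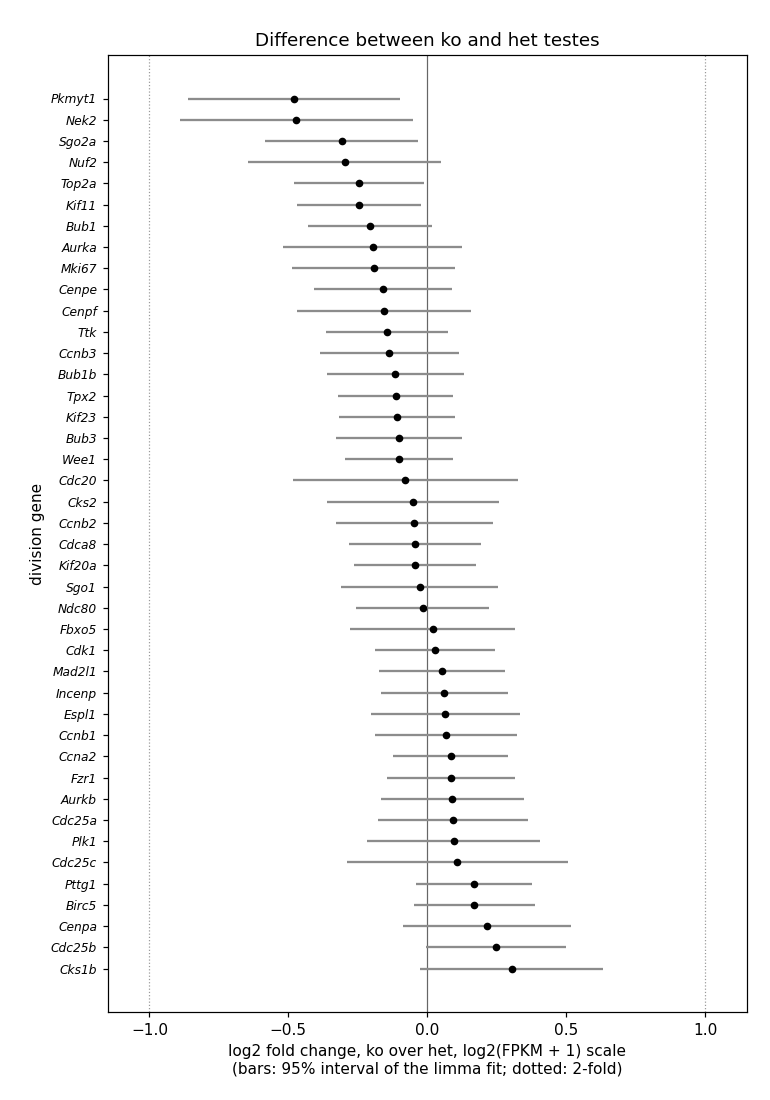
Log2 fold change of the 42 tested division genes, ko over het, with the 95% interval of the limma fit, on the log2(FPKM + 1) scale. All intervals lie inside the dotted lines at 2-fold, and those of Pkmyt1, Nek2, Sgo2a, Top2a and Kif11 lie below 0 before adjustment for the number of genes.

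At an unadjusted p under 0.05 by limma, 5 of the 42 members (Pkmyt1, Sgo2a, Nek2, Kif11 and Top2a) lay lower in ko and 0 higher, against 4.41% of all genes lower and 4.9% higher. That is 11.9% of the members on the lower side. The log2 fold changes of these 5 ran from -0.48 (Pkmyt1) to -0.25 (Kif11). Without het replicate 1 they ran from -0.33 (Pkmyt1) to -0.17 (Top2a). Without ko replicate 1 they ran from -0.47 (Nek2) to -0.20 (Kif11). Both ko libraries lay below both het libraries in 18 members (42.9%) and above in 7 (16.7%), against 19.7% and 22.1% of all genes. Genes of 1 library are not independent, so these shares are a description of 4 libraries and carry no test.

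Het replicate 1 stood highest among the libraries for most of the members with the lower ko values. Of the 18 members with both ko libraries below both het libraries, 13 had het replicate 1 above het replicate 2. So did all 7 lower genes among the 10 members with the smallest p. These genes were picked by how het and ko differ, and the share over all genes picked alike was not counted. Over all 42 tested members, 22 had het replicate 1 above het replicate 2. The median log2 difference, het replicate 1 minus het replicate 2, was 0.004 over the members and -0.002 over all genes tested. The pachytene spermatocyte markers also stood lower in ko. Of the 8 tested, of 10 listed, 7 lay lower in both ko libraries, against 19.7% of all genes, with a median log2 fold change of -0.87 over the 8. Limma called 0 of them, with 4 lower at an unadjusted p under 0.05, against 4.41% of all genes. Voom called 4 lower, against 0.619% of all genes. In addition, 9 of the 10 stood higher in het replicate 1 than in het replicate 2, a share that was not counted over all genes. The list summed to 305 and 320 FPKM in ko and to 564 and 384 FPKM in het. Among its defining genes, Piwil1 stood at 3.65 and 5.01 FPKM in ko and at 28.1 and 14.3 FPKM in het. The tested gene outside the pattern, Nxf3, whose place as a pachytene marker is doubtful, stood at 135 and 120 FPKM in ko and at 104 and 128 FPKM in het, and Pgk2 was at 0 in ko replicate 2. Without Nxf3, left out after its values were seen, the list summed to 169 and 200 FPKM in ko and to 459 and 256 FPKM in het. The part of pachytene cells in the division gene values was not tested. The markers of differentiating spermatogonia, which divide by mitosis, summed to 232 and 215 FPKM in ko and to 179 and 200 FPKM in het, with 5 of 8 higher in both ko libraries, against 22.1% of all genes.

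**Figure D3:**
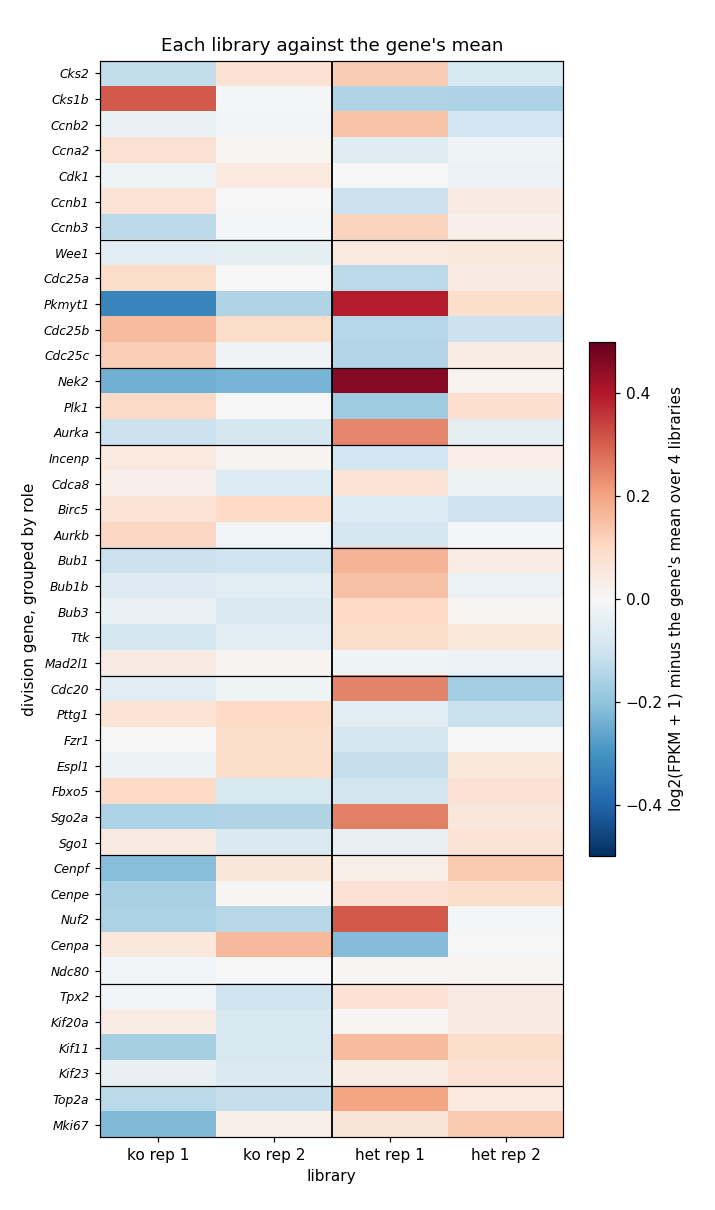
Level of the 42 tested division genes in each library on the log2(FPKM + 1) scale, minus the gene's mean over the 4 libraries, with the 2 ko libraries left of the 2 het libraries. Nek2, Pkmyt1, Nuf2 and Sgo2a are reddest (above their mean) in het replicate 1, and Cks1b in ko replicate 1.

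Members with and without the CHR element overlapped in their fold changes. The 21 tested members with a CHR element near the start had a median log2 fold change of -0.08 (range -0.25 to 0.30), and the 13 tested members with none there had -0.03 (range -0.47 to 0.25). Kif11 and Top2a, lower in ko, and Cks1b, higher in ko, all hold a CHR element near the start, and Nek2, the second lowest on the log2 scale, holds none. Of the others among the 10 members with the smallest p, Sgo2a, Cdc25b, Bub1, Nuf2 and Pttg1 hold none either, and Pkmyt1 had no window. A motif match is a description of letters, and no match says only that these letters are not in the window.

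The wider machinery of division held no called gene either. Over 10 further lists of 168 genes, 164 were tested, and limma called 0 and voom called 0, with 9 lower (5.49%) and 1 higher (0.610%) by limma at an unadjusted p under 0.05, against 4.41% and 4.9% of all genes. Both ko libraries lay below both het libraries in 54 (32.9%), against 19.7% of all genes, and above in 29 (17.7%), against 22.1%. The list medians ran from -0.17 for meiotic division regulators to 0.06 for the 16 genes listed for the anaphase-promoting complex. Of these 16, 0 passed at an unadjusted p, and 6 lay higher and 3 lower without overlap. The 26 DNA replication genes had a median of 0.04, with 9 higher and 3 lower without overlap, and 0 at an unadjusted p.

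Among the 2 genes of each wider list with the smallest p were genes of condensin, the kinetochore and the spindle. Smc4, a core condensin ATPase, stood at 54.2 and 54.3 FPKM in ko and at 85.1 and 66.6 FPKM in het, with a log2 fold change of -0.47 (limma, Benjamini-Hochberg adjusted p = 0.472). Its ko libraries are alike and het replicate 1 is the highest. Knl1, the kinetochore scaffold that recruits Bub1, stood at 7.92 and 8.83 FPKM in ko and at 10.9 and 11.4 FPKM in het, and Kif20b, a kinesin of cytokinesis, at 9.17 and 9.37 FPKM in ko and at 11.8 and 12.9 FPKM in het. In both genes the het libraries lie close together above ko. Spag5, a spindle protein, stood at 9.43 and 11.2 FPKM in ko and at 15.7 and 12.9 FPKM in het. Cdkn2c, an inhibitor of the G1 kinases, stood at 8.68 and 7.69 FPKM in ko and at 13.9 and 10.97 FPKM in het, with a log2 fold change of -0.54 (limma, Benjamini-Hochberg adjusted p = 0.425).

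None of the other genes named by that rule was called. Cdc27 and Anapc7 of the anaphase-promoting complex had log2 fold changes of -0.20 and 0.17. Cenpq, Zwilch and Kntc1 of the kinetochore had -0.25, -0.24 and -0.20. Ect2 and Prc1 of cytokinesis had -0.19 and -0.33, and the condensin subunit Ncapg2 had -0.21. The cyclin Ccne2 had -0.21, the replication clamp loader subunits Rfc3 and Rfc4 had 0.20 and -0.16, and Lin9 and Rbl1, partners in complexes that control division genes, had -0.25 and -0.32. Among meiotic regulators the cohesin Rec8 stood at 14.9 and 15.0 FPKM in ko and at 12.5 and 13.1 FPKM in het, and Boll, an RNA-binding protein that male mice need after meiosis, at 12.1 and 11.6 FPKM in ko and at 20.8 and 14.1 FPKM in het. Hspa2, a spermatocyte chaperone that mouse Cdk1 needs for its activity and that is also a pachytene marker, was chosen after its values were seen. It stood at 49.2 and 55.2 FPKM in ko and at 107 and 63.8 FPKM in het, highest in het replicate 1.

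**Figure D4:**
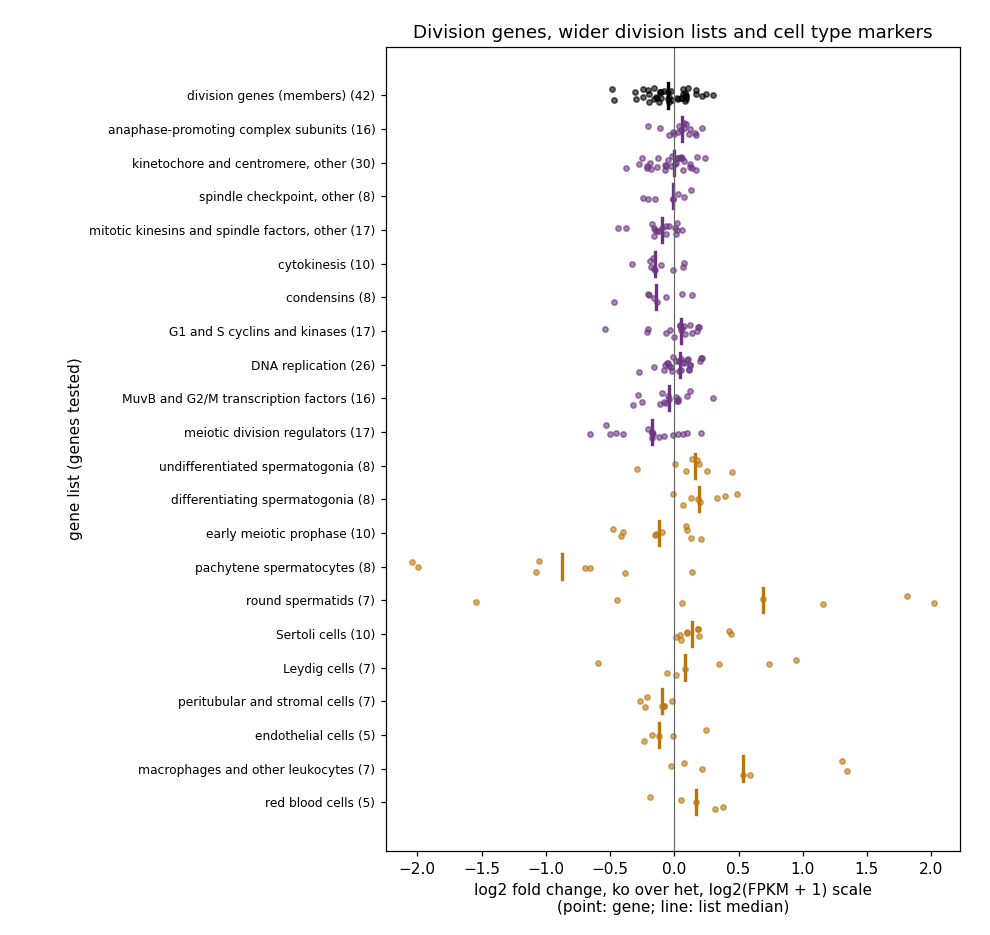
Log2 fold change, ko over het, of each tested gene (points) and the list median (lines) for the 42 division genes, the wider division lists and the cell type markers, with genes tested in parentheses. The division genes and wider lists sit between -0.65 and 0.30, and the pachytene markers reach -2.04.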

How the data were processed

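Each of the 4 deposited tables lists FPKM by gene symbol, per the file headers. The submitters' processing notes name CASAVA 1.9, STAR 2.6.1a, featureCounts, edgeR and GRCm38, without roles or settings. The annotation release and strand setting were not given in the sources used here. Symbols were matched to GENCODE M21 (96.0% of rows). FPKM times exon length gave whole reads: of values up to 20 reads, at least 99.1% in each library were whole within 0.02. The main test was limma 3.58.1 in R 4.3.3, with an intensity trend on log2(FPKM + 1), genotype as the only term and Benjamini-Hochberg adjustment over all 17905 genes averaging 1 FPKM or more. Code was checked on simulated data. Replicates differed by more than counting error, and p-values measure only the spread between these samples. Members and lists were chosen with earlier results of these data known. Members described in full were the 10 with the smallest p, none being called, and those with known germ cell roles. From each wider list the 2 genes with the smallest p were named. Alternatives changed the pseudocount (to 0.1), dropped the filter, blocked on replicate number, left out each library, ran voom on reads, rescaled by quantiles or median ratios, or kept protein-coding genes alone.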

Additional observations from a re-analysis of the deposited data

How the results depend on the processing

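Of the division genes, 0 were called by limma or voom in the 11 alternatives, and the smallest Benjamini-Hochberg adjusted p of a member ran from 0.0984 (Nek2, voom on whole reads) to 0.871 (without het replicate 1). The median log2 fold change of the members stayed below 0 in each, from -0.09 without het replicate 2 to -0.03 without het replicate 1. Members lower at an unadjusted p under 0.05 numbered 5 in the fit reported, 2 with the replicate block and 7 with voom. Members higher numbered 0 in the fit reported, 2 with quantile scaling, 2 when protein-coding genes alone were tested, and 1 with voom and with a pseudocount of 0.1. Calls over all genes, 37 higher and 2 lower, moved to 0 and 0 with no filter, 135 and 108 with voom, 94 and 14 with protein-coding genes only, and 0 and 0 with each library left out. With the replicate block, calls over all genes were 15 and 0. Genes at an unadjusted p under 0.05 numbered 760 higher and 790 lower of 17905 with that block, and 932 and 979 of 17445 with voom. They numbered 868 and 778 of 17905 with a pseudocount of 0.1, and 887 and 851 of 17905 with quantile scaling. With protein-coding genes only they numbered 836 and 611 of 12795. At an unadjusted p under 0.05 limma still counted 1434 higher and 1206 lower with no filter, and 563 to 986 higher and 498 to 1034 lower with a library left out. The labels do not say that a replicate number pairs animals, and the same-numbered deviations correlated at r = -0.03 over genes. Of the named members, signs turned only in leave-one-out fits, in genes near 0: log2 fold changes ran from -0.072 to 0.11 for Fbxo5, -0.15 to 0.052 for Cks2, -0.0097 to 0.14 for Ccnb1, -0.17 to 0.074 for Ccnb2, -0.037 to 0.23 for Plk1 and -0.0059 to 0.061 for Cdk1. With 2 libraries a genotype, the interval of a single gene sets what could be seen, and Ccna1 and Aurkc rest on 22 reads or fewer in each library.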
